A study of Rattus norvegicus with 12 samples.

Results

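The subject is the interaction of brain death and SEW-2871 in rat lung, which asks whether brain death changed a gene by a different amount in animals given the compound than in animals not given it. SEW-2871 is a small-molecule agonist of the sphingosine 1-phosphate receptor S1pr1. For each gene the interaction is the BD/SEW mean minus the SEW mean, less the BD mean minus the Control mean, in log2 units, where 1 unit is a 2-fold difference. All 12 arrays of the series enter it, 3 in each of 4 groups. Of 31042 probe sets, 20826 carry exactly 1 gene symbol, and they gave 14217 genes with 1 probe set kept per gene. For every gene called, the 4 group means were sorted and split at the widest gap, which names the mean or pair of means set apart. A split of Control and SEW against BD and BD/SEW, or of Control and BD against the others, does not itself give an interaction.

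Lung RNA came from male wild-type Sprague Dawley rats of 250 to 350 g. Control animals are labelled sham and had no brain death and no compound. In the BD group brain death was brought about by inflating a 4 Fr balloon catheter outside the dura. SEW animals received SEW-2871 intravenously at 0.1 mg/kg without brain death. BD/SEW animals received the same dose 15 min after brain death. Whether SEW animals were sham-operated is not stated, and the operation and the compound therefore cannot be told apart in the step from Control to SEW. Ages and the time at which lungs were taken are not given in the sources used here. The labels do not number the animals, so p-values measure the spread between these samples. Each array was hybridised with material from 6 ug of total RNA. Precision is limited by the number of arrays. Array medians lay between 7.34 and 7.41.

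Sphingosine 1-phosphate is a blood-borne lipid whose receptor S1pr1 is abundant on endothelial cells, where it supports the junctions of the vessel wall, and on lymphocytes, where it guides exit from lymphoid organs. Brain death is followed by a surge of catecholamines and systemic inflammation, and the lung is among the organs injured. Inflamed endothelium displays selectins and Vcam1, which capture leukocytes, and much of that programme is driven by the transcription factor NF-kappa-B, which binds a sequence called the kappa-B site and induces its own inhibitors.

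Promoter sequences are shown because many of the called genes are textbook NF-kappa-B targets, and they let the letters be read beside the array values. The RefSeq table for assembly GRCr8 held the 250 bases before the start of 97 of the 135 called genes. The sequences below are those of the 5 positive genes with the largest interaction that held a match to the kappa-B consensus, on either strand. Capitals mark the match. They lie at chr14:15973478-15973727 (+ strand) for Cxcl11, chr4:5894576-5894825 (− strand) for Il6, chr4:32941277-32941526 (− strand) for Tfpi2, chr14:15988816-15989065 (+ strand) for Cxcl10 and chr6:111084467-111084716 (+ strand) for Batf.
Cxcl11: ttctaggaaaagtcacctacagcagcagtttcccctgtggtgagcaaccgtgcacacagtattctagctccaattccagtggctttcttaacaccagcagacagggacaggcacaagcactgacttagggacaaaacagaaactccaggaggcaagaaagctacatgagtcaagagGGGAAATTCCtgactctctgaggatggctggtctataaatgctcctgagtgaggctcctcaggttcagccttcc
Il6: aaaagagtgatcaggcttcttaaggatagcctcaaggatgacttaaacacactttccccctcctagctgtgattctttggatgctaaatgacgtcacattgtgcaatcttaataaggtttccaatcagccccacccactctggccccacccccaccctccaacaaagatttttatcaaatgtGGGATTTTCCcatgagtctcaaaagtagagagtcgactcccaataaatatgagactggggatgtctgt
Tfpi2: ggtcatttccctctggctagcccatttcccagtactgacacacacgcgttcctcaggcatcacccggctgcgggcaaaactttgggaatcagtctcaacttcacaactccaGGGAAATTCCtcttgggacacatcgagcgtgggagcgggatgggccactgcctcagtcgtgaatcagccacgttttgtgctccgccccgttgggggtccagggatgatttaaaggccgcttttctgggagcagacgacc
Cxcl10: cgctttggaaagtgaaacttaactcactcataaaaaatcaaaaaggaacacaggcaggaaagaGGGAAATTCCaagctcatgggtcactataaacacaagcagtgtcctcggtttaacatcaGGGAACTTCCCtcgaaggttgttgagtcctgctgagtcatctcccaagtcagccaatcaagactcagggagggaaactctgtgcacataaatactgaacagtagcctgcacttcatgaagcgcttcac
Batf: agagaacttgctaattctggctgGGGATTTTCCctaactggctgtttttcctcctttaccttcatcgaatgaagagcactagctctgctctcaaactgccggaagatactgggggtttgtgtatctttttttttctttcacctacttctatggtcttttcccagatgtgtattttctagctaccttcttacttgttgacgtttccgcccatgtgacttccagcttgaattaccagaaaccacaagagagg
The Cxcl10 window held 3 matches, of which 2 overlap and are written as 1 run of capitals. A match was found in 20 of 91 promoters of positive genes (22%) and in 1 of 6 of negative genes, against 8.26% of the promoters of all 10918 measured genes with a sequence. The AP-1 letters TGANTCA were in 14 of the 91 (15.4%), against 4.87% of all. The other motifs searched were the interferon-stimulated response element in 2 of the 91 (2.2%, all genes 2.71%), the STAT letters TTCNNNGAA in 6 (6.59%, all genes 6.09%) and the cyclic AMP element TGACGTCA in 1 (1.1%, all genes 2.65%). All were searched on both strands, and these shares are descriptions with no test.

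The interaction passed the test in 135 of 14217 genes (0.95%), with a positive value in 121 (0.851%) and a negative value in 14 (0.0985%), by limma with Benjamini-Hochberg adjustment at an adjusted p under 0.05. Of these, 113 differed by at least 2-fold, 103 positive and 10 negative. Without adjustment 1771 genes had a p under 0.05, 875 positive and 896 negative, and the median over all genes was −0.02. When every probe set with 1 symbol was fitted separately, 80 genes had a called probe set, 74 of them among the 135. The number depended on single arrays. Leaving out Control replicate 2 gave 69, BD replicate 1 gave 48, and SEW replicates 1, 2 and 3 gave 79, 235 and 72. Leaving out BD/SEW replicates 1 and 2 gave 44 and 38. All 135 genes kept their sign in each of the 12 fits that leave out 1 array. Only 38, all positive, were called in every one of those 12 fits, and 70 were called in fewer than 6 of them.

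The SEW mean was the one set apart in most of the called genes. In 89 of 135 genes the SEW mean lay apart below the other means (65.9%), against 14% of all 14217 genes. In 11 it lay apart above them (8.15%), a smaller share than the 20.2% of all genes. Together these 100 genes were 74.1% of the calls, against 34.2% of all genes. In 97 of these 100 genes all 3 SEW arrays lay beyond the other 9 arrays, the exceptions being Il6, Adgrg1 and Mtfr2. The genes were called and classed on these same arrays, and the share over all genes was not counted. That count describes them and adds no test. The BD/SEW mean lay apart above in 14 genes (10.4%, all genes 6.89%). The Control mean lay apart above in 9 (6.67%, all genes 8.6%) and below in 1 (0.741%, all genes 9.44%). In 9 genes the Control and BD/SEW means stood against BD and SEW (6.67%, all genes 4.09%). In 2 the Control and SEW means stood against BD and BD/SEW (1.48%, all genes 12.5%). No called gene had the BD mean apart, the BD/SEW mean apart below, or Control with BD against the others. Over all genes BD was apart below in 3.81% and above in 5.83%, and BD/SEW below in 4.51%. Control with BD held 10.1% of all genes, a split that does not itself give an interaction. Without BD replicate 2 the share with the SEW mean apart was 45.7%, and 79 of the 184 genes then called had the Control mean apart above. Of the 100 genes themselves, 97 still had the SEW mean apart on the same side in that fit, and between 94 and 100 in the 12 fits.

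**Figure D1:**
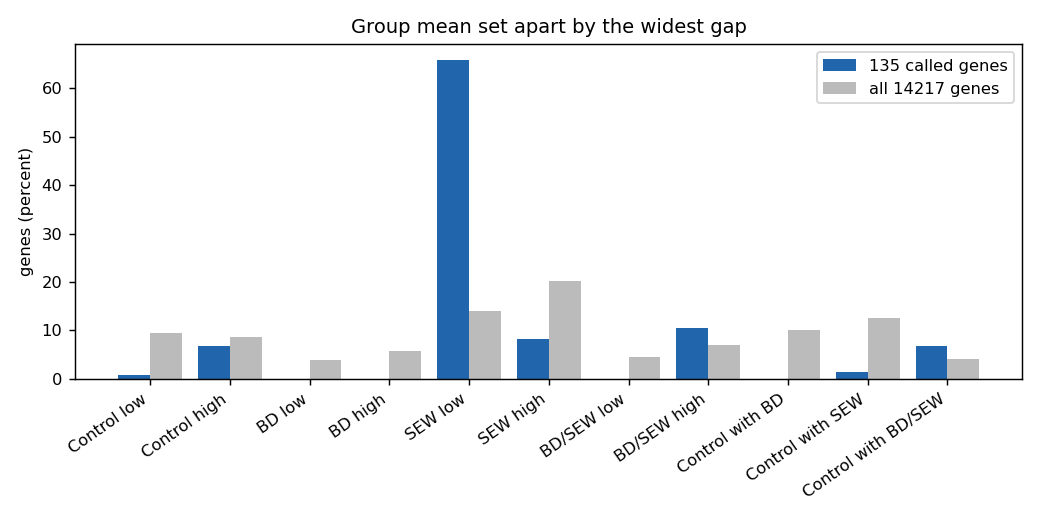
Percent of genes (vertical axis) by the group mean, or pair of means, set apart by the widest gap (horizontal axis), for the 135 called genes in blue and all 14217 genes in grey. SEW low holds 65.9% of the called genes and 14% of all genes.

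The 4 simple comparisons that make up the interaction share arrays with it and with each other, so their values stand side by side. Over all genes 84 were called for BD against Control (0.591%), 1392 for BD/SEW against SEW (9.79%), 830 for SEW against Control (5.84%) and 2 for BD/SEW against BD (0.0141%). For the 89 genes with the SEW mean apart below, the median difference was −1.23 from Control to SEW and 1.71 from SEW to BD/SEW. It was 0.04 from Control to BD and 0.40 from BD to BD/SEW. All 89 were called lower in SEW than in Control and higher in BD/SEW than in SEW. With the mean of the cardiac muscle markers of each array as a covariate, 24 genes in all were called for SEW against Control, 20 of them among the 89, and with the adipose mean 9, of which 7 were. All 89 kept the call for BD/SEW against SEW with either covariate, and the 89 had median differences from Control to SEW of −1.29 and −1.24 in those fits. In BD against Control 2 were called, Cd40 and Rab32, and in BD/SEW against BD none was. These genes were selected on the same arrays, so the counts describe them and add no test.

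**Figure D2:**
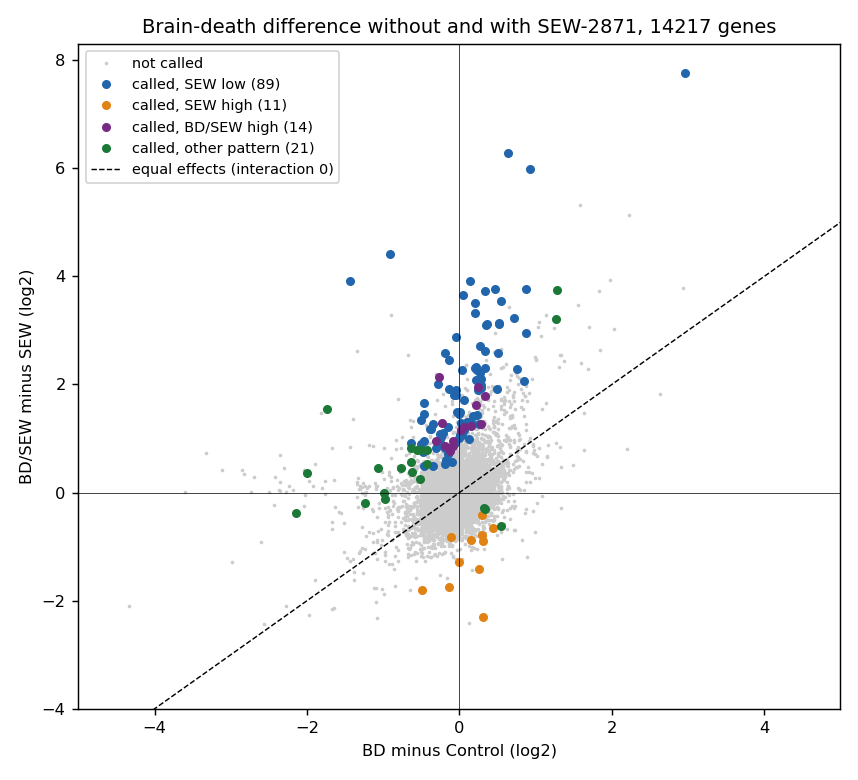
Brain-death difference in log2 units without SEW-2871 (BD minus Control, horizontal axis) and with it (BD/SEW minus SEW, vertical axis) for 14217 genes. Called genes are coloured by the group mean set apart by the widest gap. The 89 SEW-low genes in blue sit above the dashed line of equal differences, most of them close to 0 on the horizontal axis.

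Adhesion molecules of activated endothelium were among the largest values. Sele, E-selectin, read 9.46, 9.75 and 9.97 in the Control arrays, 11.52, 10.35 and 10.09 in BD, 4.31, 6.16 and 4.63 in SEW and 11.56, 11.04 and 10.45 in BD/SEW. The SEW arrays lay far below all others, and BD overlapped BD/SEW. Its interaction was 5.06 ± 0.68 (adjusted p = 0.0077), called in all 12 fits. The SEW mean of Sele, 5.03, lay under the lower quartile of the arrays (5.56 to 5.66), so no fold against it is given. Selp, P-selectin, read 7.87, 9.56 and 7.34 in SEW against 11.44, 12.12 and 11.61 in Control, 11.99, 11.52 and 11.82 in BD and 12.29, 12.17 and 11.26 in BD/SEW. Control, BD and BD/SEW overlapped one another. Its interaction was 3.60 ± 0.66 (adjusted p = 0.035), called in 4 of 12 fits. Vcam1, which binds leukocyte integrins, read 10.97, 10.83 and 11.20 in SEW against 12.39, 12.16 and 12.52 in Control, 13.05, 12.90 and 12.59 in BD and 13.14, 12.86 and 12.76 in BD/SEW. Its SEW arrays again lay below the other 9, and its interaction was 1.43 ± 0.21 (adjusted p = 0.011), called in all 12 fits. Over all genes 0.95% were called, the share to set beside this list and every list below. Of the 21 measured genes in the list of endothelial activation and coagulation, 4 were called, all positive (19.0% of the list), with a list median of 0.15. Those 4 are Sele, Selp, Vcam1 and Tfpi2, a secreted inhibitor of serine proteases. The count fell to 2 when Control replicate 2, BD replicate 1 or 3, SEW replicate 1 or 3, or BD/SEW replicate 1 or 2 was left out, with Sele and Vcam1 passing in all 12 fits. Icam1 had 0.78 ± 0.25 (adjusted p = 0.23) and Ackr1, the chemokine-scavenging receptor of venules, 1.49 ± 0.32 (adjusted p = 0.057).

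Secreted mediators gave the largest interactions. Cxcl11, a ligand of the chemokine receptor Cxcr3, read 8.73, 10.30 and 9.79 in the Control arrays, 8.28, 11 and 11.47 in BD, 5.16, 5.44 and 5.01 in SEW and 11.04, 11.77 and 11.64 in BD/SEW. SEW lay below all other arrays, and the BD arrays spanned the range from Control to BD/SEW. Its interaction was 5.64 ± 0.95 (adjusted p = 0.021). Cxcl10, another Cxcr3 ligand, read 8.64, 11.71 and 9.01 in the Control arrays, 11.54, 13.63 and 13.08 in BD, 5.27, 5.88 and 5.14 in SEW and 13.05, 13.45 and 13.06 in BD/SEW. Here SEW was lowest, the Control mean was intermediate, and BD overlapped BD/SEW. The value was 4.79 ± 0.99 (adjusted p = 0.0499), at the edge of the threshold and called in 4 of 12 fits. The SEW means of both, 5.2 for Cxcl11 and 5.43 for Cxcl10, lay under the lower quartile of the arrays, and no fold against them is given.

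Il6 read 8.23, 7.99 and 10.04 in the Control arrays, 6.66, 7.91 and 7.41 in BD, 4.57, 7.28 and 4.57 in SEW and 10.04, 9.57 and 8.57 in BD/SEW. SEW replicate 2 stood within the range of BD, so the groups overlapped. Its interaction was 5.35 ± 1.05 (adjusted p = 0.039), called in 2 of 12 fits. Cxcl1, a neutrophil attractant, read 10.30, 10.89 and 9.53 in SEW against 12.10, 12.13 and 12.55 in Control, 12.56, 13.11 and 12.17 in BD and 13.87, 13.46 and 12.70 in BD/SEW, with SEW below the rest. Its interaction was 2.75 ± 0.51 (adjusted p = 0.036). The other secreted proteins and enzymes with the SEW mean low were Tfpi2 (5.32), Ebi3 (3.78), Ptges (2.77), Inhba (2.52), F5 (1.65), Ctrc (1.27), Prg2 (1.16) and Cfp (1.03), and the granule proteins Camp (3.4) and Mmp9 (3.11). Ebi3 is a subunit of interleukin-27, Ptges makes prostaglandin E2, Inhba is the activin A subunit, F5 is coagulation factor V and Cfp is the complement regulator properdin.

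In the chemokine list 3 of 24 were called (12.5%, all genes 0.95%), Cxcl1, Cxcl10 and Cxcl11, with a median of 0.88. The count was 0 without Control replicate 3, SEW replicate 1 or 3, or BD/SEW replicate 1 or 2, it was 1 without Control replicate 2 or BD replicate 1 or 3, and it was 5 without SEW replicate 2. Cxcl2 had 4.18 ± 0.89 (adjusted p = 0.055) and Ccl2 3.75 ± 0.99 (adjusted p = 0.13), both with the SEW mean low. In the cytokine list 3 of 20 were called (15.0%), Il6, Tnf and Csf3, each with a different group mean or pair apart, and the median was 0.32. That count was 5 without SEW replicate 2, and 1 without any other array except Control replicate 3, BD replicate 2 or SEW replicate 3.

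**Figure D3:**
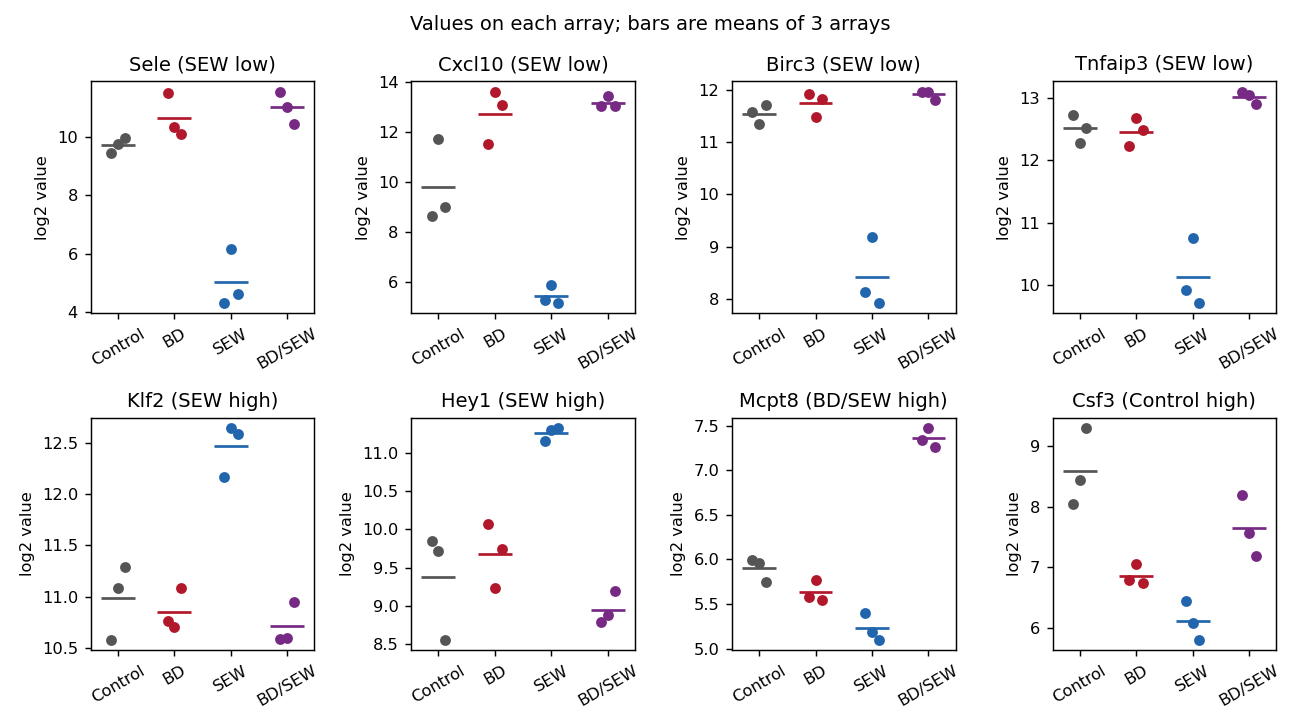
Deposited log2 values (vertical axis) of 8 called genes on each of the 12 arrays by group, with bars at the means of 3 arrays. SEW stands alone below in Sele, Cxcl10, Birc3 and Tnfaip3 and above in Klf2 and Hey1, BD/SEW stands above in Mcpt8, and Control lies highest in Csf3 with overlap of BD/SEW.

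The NF-kappa-B list held the most calls. Of its 21 measured members 10 were called (47.6%), against 0.95% of all genes. All 10 were positive with the SEW mean low, and the list median was 1.31. Lists and members were chosen with earlier results of these data known, so the count describes them and adds no test. The count was 6 without Control replicate 2 or 3, BD replicate 1 or 3, SEW replicate 3, or BD/SEW replicate 1 or 2, and 13 without SEW replicate 2. Birc3, an inhibitor of apoptosis that NF-kappa-B induces, read 11.57, 11.35 and 11.71 in the Control arrays, 11.92, 11.49 and 11.83 in BD, 8.13, 9.19 and 7.92 in SEW and 11.97, 11.97 and 11.81 in BD/SEW. All other arrays exceeded 11, while no SEW array exceeded 9.19. Its interaction was 3.30 ± 0.37 (adjusted p = 0.0032). Tnfaip3, the deubiquitinase A20 that limits NF-kappa-B, read 9.92, 10.76 and 9.72 in SEW against 12.73, 12.28 and 12.52 in Control, 12.23, 12.67 and 12.48 in BD and 13.10, 13.04 and 12.90 in BD/SEW. SEW again lay apart, and the value was 2.93 ± 0.32 (adjusted p = 0.0029). Both were called in all 12 fits.

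The subunit genes had smaller values. Relb read 8.04, 8.16 and 7.57 in SEW against 9.74, 9.62 and 9.64 in Control, 9.94, 9.68 and 10.08 in BD and 10.25, 10.19 and 10.10 in BD/SEW, with little spread in any group, and its interaction was 2.02 ± 0.21 (adjusted p = 0.0027). Nfkb1, the p105 and p50 subunit gene, read 11.11, 11.17 and 11.03 in SEW against 11.91, 12.05 and 11.94 in Control, 11.64, 11.84 and 11.85 in BD and 12.01, 11.83 and 11.92 in BD/SEW. Its interaction was 1.01 ± 0.12 (adjusted p = 0.005), small but separated, and called in all 12 fits. Nfkb2 had 1.87 ± 0.25 (adjusted p = 0.0077). The remaining called members were Tnfaip2 (2.62), Nfkbiz (2.11), Cflar (2.09), Bcl3 (2.08) and Tnip1 (1.49), where Bcl3 and Nfkbiz are nuclear inhibitor-like regulators, Cflar restrains caspase-8 and Tnip1 partners with A20. Among the 11 members not called, Rela had 0.51 ± 0.15 (adjusted p = 0.17), and the classical inhibitor Nfkbia 0.36 ± 0.13 (adjusted p = 0.29) with the BD/SEW mean high. A second probe set of Nfkbiz (−0.17) had the opposite sign and did not pass. Other probe sets of Tnfaip2 had 1.69, 0.51 and −0.04, and none of them passed.

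The SEW-low genes also held regulators of cytokine signalling and of messenger RNA decay, a group put together after its values were seen. Zc3h12a, the ribonuclease Regnase-1 that degrades inflammatory transcripts, read 7.37, 7.84 and 6.62 in SEW against 9.98, 9.51 and 9.79 in Control, 10.45, 10.21 and 10.28 in BD and 11.19, 10.79 and 10.51 in BD/SEW. SEW was below all other arrays, and the interaction was 3.0 ± 0.38 (adjusted p = 0.0056), called in 12 of 12 fits. Irak3, an inhibitory kinase of the Toll-like receptor pathway, had 1.93 ± 0.30 (adjusted p = 0.014) and Cish, a feedback inhibitor of cytokine receptors, 1.65 ± 0.27 (adjusted p = 0.018). Stat3 read 12.10, 12.42 and 12.13 in SEW against 12.83, 13.04 and 13.15 in Control, 12.81, 12.76 and 12.95 in BD and 12.84, 12.71 and 12.91 in BD/SEW, and its interaction of 0.77 ± 0.16 (adjusted p = 0.046) was called in 2 of 12 fits. The others were Rnf125 (2.12), Marchf3 (2.28), Tifa (1.71), Marchf1 (1.13), Ptpn2 (1.08) and Ripk1 (0.71). Rnf125, Marchf3 and Marchf1 are ubiquitin ligases, Tifa and Ripk1 carry signals to NF-kappa-B and Ptpn2 is a phosphatase of JAK and STAT proteins. In the IL-6, STAT3 and SOCS list 2 of 16 were called (12.5%, median 0.47), and Socs1 had 1.76 ± 0.42 (adjusted p = 0.087).

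Transcription and chromatin regulators with the SEW mean low numbered 8. Batf, an AP-1 family factor, read 6.91, 8.54 and 6.54 in SEW against 10.16, 9.63 and 9.66 in Control, 10.15, 9.96 and 10.74 in BD and 11.31, 11.09 and 10.87 in BD/SEW. SEW replicate 2 lay closest to the other groups without reaching them, and the interaction was 3.29 ± 0.59 (adjusted p = 0.03). The others were Sbno2 (2.23), Fosl2 (1.61), Kdm6b (1.41), Hlx (1.32), Runx1 (1.16), Esrra (0.86) and Tet2 (0.66). Fosl2 is another AP-1 factor, Kdm6b removes a repressive histone mark and Runx1 is a regulator of blood cells. Fosl2 was the only one of 25 immediate early and cyclic AMP genes to pass (4.0% of the list, median 0.42). Egr1 in that list had 1.79 ± 0.47 (adjusted p = 0.13) and Fos 0.85 ± 0.50 (adjusted p = 0.53).

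Surface receptors numbered 10, Tnfrsf11a (2.28), Olr1 (2.10), Klra4 (1.88), P2ry6 (1.83), Adgrg1 (1.55), Cd40 (1.52), Csf2ra (1.21), Clec12a (1.16), Il10ra (1.10) and Ly75 (0.96). Tnfrsf11a is RANK, Olr1 takes up oxidised lipoprotein, and Cd40 is the co-stimulatory receptor of antigen-presenting and endothelial cells. Cd40 read 8.72, 9.12 and 9.28 in the Control arrays, 9.92, 9.68 and 9.79 in BD, 8.09, 7.83 and 7.88 in SEW and 10.30, 10.22 and 10.11 in BD/SEW. SEW was lowest, Control stood between, and both brain-death groups were highest. Its interaction was 1.52 ± 0.20 (adjusted p = 0.0077), called in 12 of 12 fits, and it was one of the genes also called for BD against Control. Klra4 belongs to a multigene family whose members can share probes, so its value is less certain.

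Genes of transport and metabolism numbered 10 in this class. Slc2a3, the glucose transporter GLUT3, read 8.33, 8.47 and 8.12 in SEW against 10.54, 9.71 and 10.15 in Control, 10.47, 10.13 and 10.60 in BD and 11.24, 10.82 and 11 in BD/SEW. SEW lay below the other 9 arrays, and the interaction was 2.45 ± 0.29 (adjusted p = 0.0042). Slc7a11, the cystine transporter that supplies glutathione synthesis, read 6.58, 6.50 and 6.68 in SEW against 8.04, 7.81 and 7.70 in Control, 7.57, 7.78 and 7.78 in BD and 8.08, 8.86 and 8.58 in BD/SEW, again with SEW apart, and had 2.06 ± 0.25 (adjusted p = 0.0047). Hk1, which starts glycolysis, had 1.55 ± 0.22 (adjusted p = 0.0098), and all 3 were called in 12 of 12 fits. The others were Bcat1 (2.59), Gch1 (1.97), Hdc (1.55), Slc11a2 (1.52), Slc39a14 (1.40), Sdhaf1 (0.97) and Slc41a1 (0.96), among them the iron and zinc carriers Slc11a2 and Slc39a14. In the hypoxia and glycolysis list 3 of 19 were called (15.8%, median 0.34), namely Slc2a3, Hk1 and Slc2a6. Slc2a1 had 1.18 ± 0.25 (adjusted p = 0.053) and Vegfa −0.36 ± 0.19 (adjusted p = 0.49).

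The largest role group, 16 genes, covered small GTPases, the cytoskeleton and trafficking, with values from 0.83 to 2.90. Rnd1, which loosens cell adhesion, read 7.69, 7.42 and 7.30 in SEW against 9.22, 9.09 and 10.21 in Control, 10.47, 10.41 and 10.25 in BD and 11.72, 11.38 and 10.62 in BD/SEW. SEW lay below Control, and BD and BD/SEW lay above Control. Its interaction was 2.90 ± 0.43 (adjusted p = 0.011). Gas7, a cytoskeletal adaptor, read 8.27, 8.36 and 8.17 in SEW against 9.86, 9.67 and 9.74 in Control, 10.01, 9.80 and 10.26 in BD and 10.56, 10.48 and 10.38 in BD/SEW, and its tight groups gave 1.94 ± 0.17 (adjusted p = 0.00071). The others were Rgs16 (1.86), Ralgds (1.64), Tesk2 (1.45), Arhgap15 (1.36), Tiam1 (1.26), Rab20 (1.22), Rab32 (1.22), Snx10 (1.20), Hcls1 (1.09), Gmip (1.05), Lsp1 (1.01), Pacsin1 (0.97), Sos1 (0.88) and Rhbdf2 (0.83). Lsp1, Hcls1 and Arhgap15 are known from leukocytes. Other probe sets of Rab20 had 0.49 and −0.20, and neither passed.

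Of genes of division and the nucleus, Lmnb1, a nuclear lamin, read 9.39, 9.29 and 9.46 in SEW against 10.87, 10.86 and 10.79 in Control, 10.64, 10.70 and 11.06 in BD and 11.22, 11.22 and 11.09 in BD/SEW. The interaction was 1.84 ± 0.16 (adjusted p = 0.00071), and a second probe set also passed, at 1.63 ± 0.25. Another, at a mean level of 5.21, had 0.07 and did not pass. Cks2, a partner of cyclin-dependent kinases, read 7.39, 6.99 and 6.91 in SEW against 9.31, 8.86 and 8.59 in Control, 9.53, 9.23 and 9.09 in BD and 10.38, 10.16 and 10.10 in BD/SEW, with SEW apart from all others, and had 2.75 ± 0.27 (adjusted p = 0.0018). The others were Mki67 (1.92) and Donson (1.01), and the list of 21 cell cycle genes had 1 call, Mki67 (4.76%), with a median of 0.42. The 4 remaining SEW-low genes were Rtp3 (2.60), Plscr1 (1.34), Mtfr2 (1.24) and Uaca (1.10). Across the 89 genes SEW replicate 2 was the highest SEW array in 56, replicate 1 in 19 and replicate 3 in 14. In 9 of them, Sele, Cxcl10, Cxcl11, Il6 and Tfpi2 included, the SEW mean lay under 5.66, the upper end of the lower quartile of the arrays, and the size of their interaction rests on values near the floor.

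The negative side was led by genes that were high in SEW. Klf2, the flow-responsive factor that keeps endothelium quiescent, read 10.58, 11.08 and 11.29 in the Control arrays, 10.76, 10.70 and 11.08 in BD, 12.17, 12.64 and 12.58 in SEW and 10.59, 10.60 and 10.95 in BD/SEW. The SEW arrays lay above all others, which overlapped one another. Its interaction was -1.61 ± 0.27 (adjusted p = 0.021), called in 8 of 12 fits. A second Klf2 probe set also passed, at −2.50 ± 0.37 (adjusted p = 0.017 over probe sets), while another, at a mean level of 5.32, had 0.08. The remaining Klf2 probe sets had −0.97 and −0.34 and did not pass. Hey1, a Notch target, read 9.85, 9.72 and 8.56 in the Control arrays, 10.07, 9.24 and 9.74 in BD, 11.15, 11.30 and 11.32 in SEW and 8.79, 8.88 and 9.19 in BD/SEW. SEW was highest, and the BD/SEW mean was lowest, although 1 Control array lay below it. Its interaction was -2.61 ± 0.43 (adjusted p = 0.018), called in 9 of 12 fits, and BD/SEW was 4.92-fold below SEW.

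The other genes with the SEW mean high were Afap1l1 (-1.68), Hoxa5 (-1.31), Palmd (-1.27), Hspa12b (-1.21), Klf10 (-1.09), Zbtb8a (-1.06), Sh2d3c (-1.02), Bltp3a (-0.73) and Dusp7 (-0.72). Hoxa5 is a lung patterning factor, Palmd a membrane-associated cytoskeletal protein, Hspa12b an endothelial heat shock protein family member and Dusp7 a phosphatase of ERK kinases. In these 11 genes, called and classed on the same arrays, all 3 SEW arrays exceeded the other 9. Their median difference was 1.06 from Control to SEW and −0.90 from SEW to BD/SEW. Other probe sets of Hspa12b had −0.74 and 0.38, those of Bltp3a had −0.41 and 0.05, and none of them passed. With the cardiac marker mean as a covariate only Klf2 and Hey1 of the 14 negative genes were called, and with the adipose mean none of the 14 was, although all 14 kept their sign in both fits. With BD replicate 1 or either of BD/SEW replicates 1 and 2 left out, no negative gene was called, those of the flow response and Notch list included. In the flow response and Notch list 3 of 20 were called, all negative (15.0%), Hey1, Klf2 and Klf10, with a median of −0.19. Dll4 had −1.15 ± 0.28 (adjusted p = 0.086) and Klf4 −0.85 ± 0.23 (adjusted p = 0.14).

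A smaller class of 14 genes had the BD/SEW mean apart above. In these genes, called and classed on the same arrays, all 3 BD/SEW arrays lay above the other 9. Mcpt8, a granule protease of basophils, read 7.34, 7.47 and 7.26 in BD/SEW against 5.99, 5.96 and 5.75 in Control, 5.58, 5.77 and 5.54 in BD and 5.40, 5.19 and 5.10 in SEW. The 9 other arrays fell between 5.10 and 5.99. Its interaction was 2.40 ± 0.15 (adjusted p = 6.9e-05), the smallest p of all genes. Mcpt9, a related protease, read 5.43, 5.44 and 5.44 in BD/SEW against 4.82, 4.71 and 4.55 in Control, 4.70, 4.5 and 4.65 in BD and 4.49, 4.75 and 4.5 in SEW, all of them under the lower quartile of the arrays, and its interaction was 0.93 ± 0.13 (adjusted p = 0.0078). These genes were the 2 called for BD/SEW against BD, and both were called in 12 of 12 interaction fits. For Mcpt8 the BD mean of 5.63 and the SEW mean of 5.23 also lay under the upper end of the lower quartile, so the size of these differences rests on values near the floor. As members of one family they may share probes.

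Slc2a6, a sugar transporter of the lysosome, read 9.03, 8.97 and 8.99 in BD/SEW against 7.40, 7.82 and 7.58 in Control, 7.55, 7.87 and 8.11 in BD and 6.75, 7.39 and 7.0 in SEW. BD/SEW lay apart above the rest, and the interaction was 1.71 ± 0.26 (adjusted p = 0.012). The others were Mtmr7 (1.53), Ppp1r3b (1.44), Slc15a3 (1.40), Mefv (1.25), Lst1 (1.16), Pygl (1.14), Septin5 (1.08), Fermt3 (1.05), Ddx52 (1.04), Rab37 (0.99) and Arhgap9 (0.89). Mefv, Lst1, Fermt3 and Arhgap9 are known from leukocytes, and Pygl and Ppp1r3b act on glycogen. For the 14 genes of this class the median difference was 1.23 from SEW to BD/SEW and −0.03 from Control to BD. It was 0.74 from BD to BD/SEW, with 2 called, and −0.53 from Control to SEW, with 3 called lower. A lower SEW mean therefore also entered their interaction. In the basophil and mast cell list 3 of 13 were called (23.1%, all genes 0.95%, median 0.48), Mcpt8, Mcpt9 and Hdc, which makes histamine. Hdc had the SEW mean low and read 7.42, 8.08 and 7.72 in SEW against 8.65, 8.92 and 9.19 in Control, 8.36, 8.28 and 9.0 in BD and 8.94, 9.02 and 8.79 in BD/SEW. The mast cell genes Cpa3 (0.02 ± 0.25, adjusted p = 0.99) and Tpsb2 (−0.14 ± 0.17, adjusted p = 0.78) did not pass.

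Control stood apart above in 9 genes. Csf3, the granulocyte colony-stimulating factor, read 8.04, 8.45 and 9.30 in the Control arrays, 6.79, 7.05 and 6.74 in BD, 6.44, 6.08 and 5.80 in SEW and 8.19, 7.57 and 7.19 in BD/SEW. Control and BD/SEW overlapped, SEW was lowest and BD lay just above it. Its interaction was 3.28 ± 0.45 (adjusted p = 0.0078), called in 12 of 12 fits, and it was called lower in BD than in Control by 3.34-fold. Cebpb, a factor of the acute phase response, read 12.97, 12.57 and 13.23 in the Control arrays, 11.59, 11.67 and 11.80 in BD, 12.32, 12.44 and 12.21 in SEW and 12.29, 12.05 and 12.04 in BD/SEW. Control was highest and BD lowest, and the interaction was 1.04 ± 0.21 (adjusted p = 0.042), called in 2 of 12 fits. Rnd3 had 0.85 ± 0.17 (adjusted p = 0.046) and was called in none of the 12 fits. The others were Prss22 (2.37), Fam110c (1.78), Olah (1.52), N4bp2l1 (1.00), Sema6b (0.98) and Znrf1 (0.77), and the 1 gene with Control apart below was Ehhadh (-0.63), of peroxisomal fatty acid oxidation. For the 9 genes the median difference was −1.07 from Control to BD and −0.99 from Control to SEW.

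Genes split into pairs of groups were few. Tnf, the cytokine, read 8.16, 7.72 and 7.65 in the Control arrays, 9.09, 9.08 and 9.19 in BD, 6.55, 7.49 and 5.75 in SEW and 10.03, 10.45 and 10.55 in BD/SEW. Both brain-death groups lay above both others, and BD/SEW lay above BD. Its interaction was 2.47 ± 0.48 (adjusted p = 0.039), called in 2 of 12 fits. The split into pairs does not give that value. The difference was −1.25 from Control to SEW and 1.22 from BD to BD/SEW, so no single group mean made it. Ccrl2, a receptor that binds chemerin, read 10.39, 10.05 and 9.57 in the Control arrays, 11.08, 11.57 and 11.17 in BD, 8.61, 9.12 and 8.52 in SEW and 12.12, 12.14 and 11.66 in BD/SEW. The order of the groups was the same as for Tnf, and the interaction was 1.95 ± 0.33 (adjusted p = 0.02), called in 6 of 12 fits. For Ccrl2 the difference was −1.25 from Control to SEW and 0.70 from BD to BD/SEW. Control paired with BD/SEW above BD and SEW in Pstpip1 (1.46), Itpkc (1.35), Gadd45g (1.31), Slc7a5 (1.22), LOC100910424 (1.20), Tacc3 (1.20) and Zfp36 (0.95), and below them in Tmem198b (-0.61) and Hoxb6 (-1.15). Zfp36, tristetraprolin, destabilises cytokine transcripts. It read 12.45, 12.22 and 12.50 in the Control arrays, 11.79, 12.05 and 12.06 in BD, 11.73, 11.87 and 11.62 in SEW and 12.32, 12.28 and 12.21 in BD/SEW, and BD and SEW lay below the other groups.

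S1pr1, the target of the compound, was abundant and nearly flat. It read 13.37, 13.35 and 13.29 in Control, 13.32, 13.21 and 13.29 in BD, 13.15, 13.37 and 13.33 in SEW and 13.37, 13.32 and 13.30 in BD/SEW. All groups overlapped, and its interaction was 0.11 ± 0.10 (adjusted p = 0.71). None of the 16 measured genes of the sphingosine 1-phosphate list passed, and the list median was 0.06. Its lowest value was that of Spns2, the exporter of the lipid, at −1.30 ± 0.30 (adjusted p = 0.078) with Control low. S1pr2 had 0.67 ± 0.22 (adjusted p = 0.23) with BD/SEW high.

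Interferon-response genes had mostly positive values without a call. Of 31 measured, 27 were positive, none passed the test, and the median was 0.81, or 0.42 without Control replicate 2. The summed level of these genes was 16.5 on that array and 15.52 and 15.58 on the other Control arrays. The smallest adjusted p was that of Irf1, at 1.07 ± 0.23 (adjusted p = 0.060). Rsad2 had the largest value, 2.92 ± 0.89 (adjusted p = 0.20), with the SEW mean low. Of the endothelial identity genes 19 of 26 were negative, with a median of −0.16 and no call. Sox18 had −1.70 ± 0.40 (adjusted p = 0.078) and Calcrl, the adrenomedullin receptor, −2.09 ± 0.82 (adjusted p = 0.34). In the BMP, SMAD and ID list 16 of 19 were negative with a median of −0.39, and none passed, with Smad6 at −1.61 ± 0.38 (adjusted p = 0.085). Of the 135 called genes, 42 belonged to one of the 33 lists and 93 to none.

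**Figure D4:**
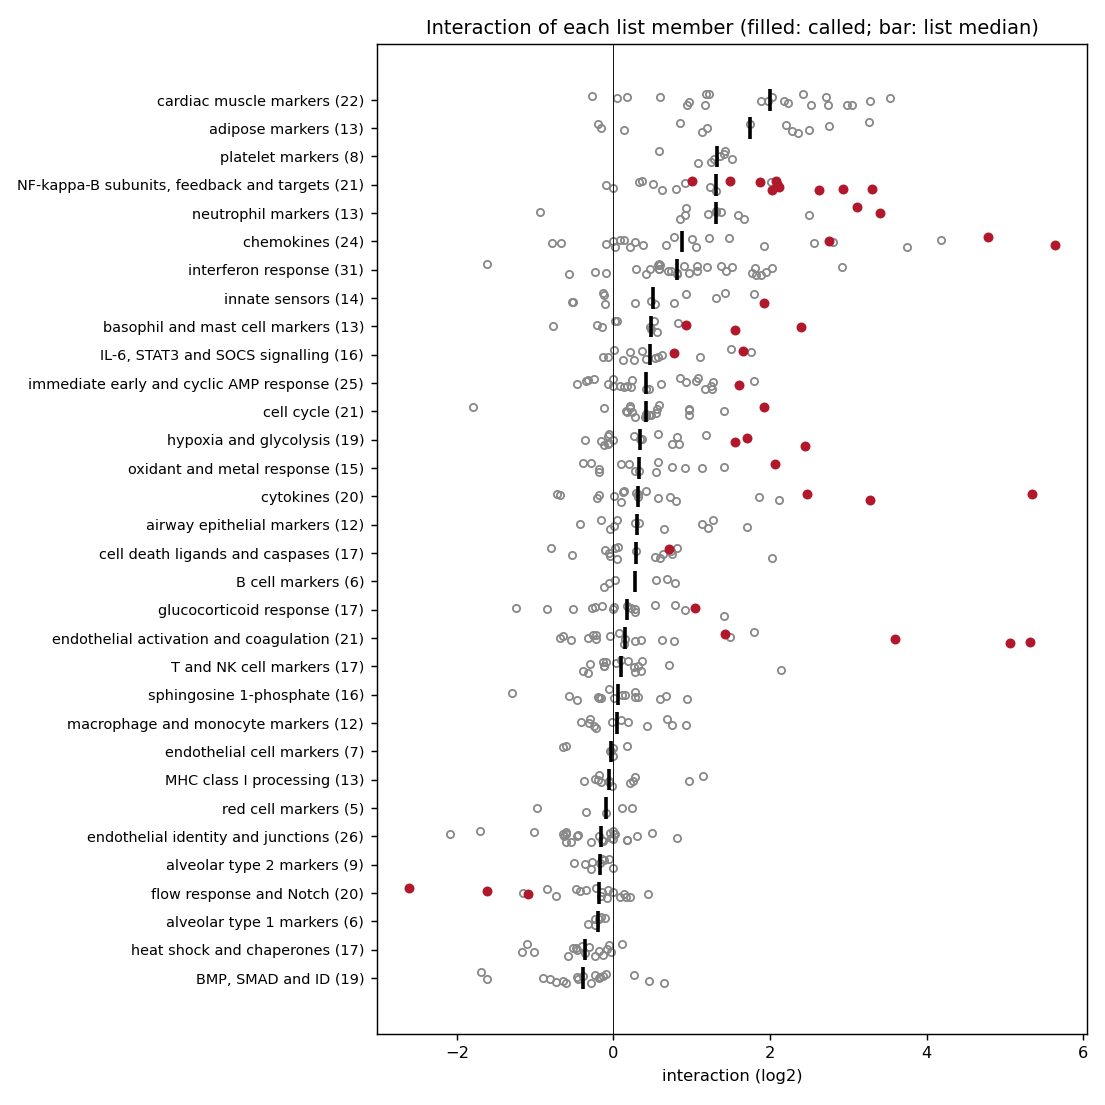
Interaction of each measured list member in log2 units (horizontal axis) for 32 gene lists, number measured in brackets (vertical axis), with called genes filled, others open and list medians as bars. Called members of the NF-kappa-B list lie to the right of 0 and those of the flow response and Notch list to the left, while no cardiac or platelet marker was called.

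Marker levels of other tissues differed between arrays, also within the BD group. The summed level of 22 cardiac muscle markers, in log2 units, was 14.63 to 15.71 in Control, 16.57 in BD replicate 2, and 10.41 to 13.06 on the other 8 arrays. Of those markers, 0 to 2 lay under the lower quartile of the kept genes in Control and BD replicate 2, and 4 to 19 on the others. Over all arrays that quartile is 6.53, above the 5.56 to 5.66 of all probe sets used for single genes. The cardiac markers had a median interaction of 2.0, positive in 21 of 22, with none called, and 0.90 without BD replicate 1 or 3.82 without BD replicate 2. Adipose markers summed to 13.26 to 13.98 in Control, 13.54 in BD replicate 2 and 11.87 to 12.91 elsewhere, with a median interaction of 1.74 and no call among 13. With the cardiac marker mean of each array as a covariate 81 genes were called, 78 of them among the 135, 76 positive and 2 negative. With the adipose mean 36 were called, 32 of them among the 135, all positive. These levels are largely aligned with the Control group, so their part and that of the group cannot be told apart.

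Neutrophil markers summed to 14.97 to 15.44 in Control, 15.10 to 15.47 in BD and 15.72 to 16.03 in BD/SEW. In SEW they summed to 14.14 and 14.25 in replicates 1 and 3 and to 15.32 in replicate 2, which also was the highest SEW array in most SEW-low genes. Of 13 neutrophil markers 12 had positive interactions, with a median of 1.31, and 2 passed, Camp and Mmp9 (15.4%). The count was 7 without SEW replicate 2, 1 without BD replicate 3 and 0 when any other array was left out. Camp read 6.81, 8.64 and 6.72 in SEW against 9.82, 9.32 and 10.06 in Control, 9.92, 9.58 and 10.71 in BD and 11.37, 10.78 and 11.22 in BD/SEW, and Mmp9 read 6.96, 9.10 and 7.46 in SEW against 10.42, 9.46 and 10 in Control, 10.05, 9.86 and 10.61 in BD and 11.26, 10.89 and 11.34 in BD/SEW, both with SEW low. All 8 platelet markers had positive values with the BD/SEW mean high, a median of 1.32 and no call, and adjusted p-values ran from 0.15 to 0.40. Platelet marker sums were 12.55 to 13.17 in BD/SEW and 10.72 to 12.18 elsewhere. Whether fewer cells of a type or less RNA per cell underlies such values cannot be told apart in whole lung, and the part of these cells in the called interactions was not tested.

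**Figure D5:**
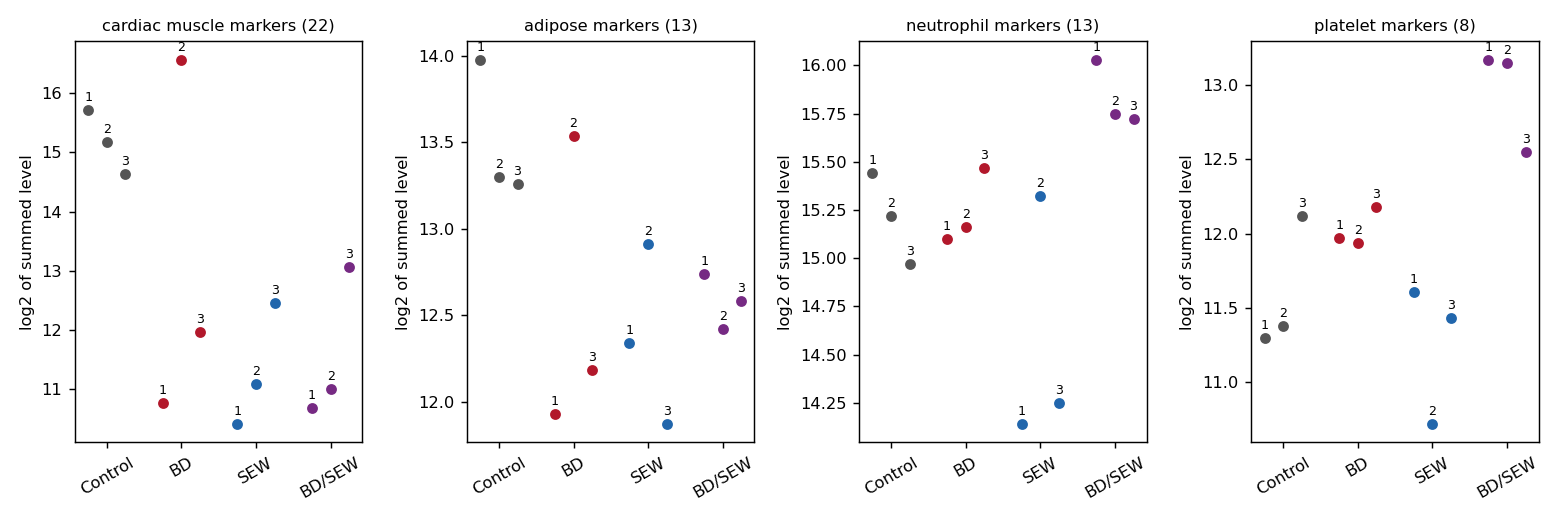
Summed level of marker genes in log2 units (vertical axis) on each array by group, numbered by replicate, for cardiac muscle, adipose, neutrophil and platelet markers. Cardiac levels are high in Control and BD replicate 2, neutrophil and platelet levels are highest in BD/SEW, and SEW replicate 2 stands above the other SEW arrays for neutrophil markers.

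Alveolar and endothelial markers were high on every array, while the summed airway markers varied more between arrays. The 9 alveolar type 2 markers summed to 16.19 to 16.70 and the 6 alveolar type 1 markers to 14.89 to 15.49 on all arrays. The 7 endothelial markers summed to 14.46 to 14.74. None of these markers lay under the lower quartile of the kept genes on any array. None had a called interaction, with medians of −0.17, −0.20 and −0.03. Macrophage and monocyte markers summed to 15.07 to 15.26, with a median interaction of 0.04 and no call among 12. The 12 airway epithelial markers summed to 15.98 to 16.1 in Control and 15.1 to 16 in BD. They summed to 14.82 to 15.56 in SEW and 15.13 to 15.26 in BD/SEW. Whether the part of the lung sampled differed was not tested. Heat shock genes and chaperones, 17 in all, averaged 12.18 on SEW replicate 2 and 10.43 to 10.69 on the other arrays. Their median interaction was −0.36, and 0.07 without that array, with no call in the fit of all arrays.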

How the data were processed

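The values analysed are the authors' deposited log2 probe set values of 12 Affymetrix arrays, given with 2 decimals. The submitters' processing notes name affy, MAS5 and RMA, with neither versions nor roles. At each rank the 12 arrays lay within 0.22 of one another. Gene symbols came from the annotation table of the array, and 436 probe sets with several symbols and 9780 with none were left out. For the 4525 genes with more than 1 probe set, the probe set of highest mean over the 12 arrays was kept. A mean per group was fitted over the 12 arrays with limma 3.58.1 in R 4.3.3, with a mean trend in the variance moderation. Tests were two-sided and adjusted by Benjamini-Hochberg over 14217 genes, and called means an adjusted p under 0.05. An interaction is given ± its standard error. The fit was tried on simulated data with independent noise on each array. Those data lack components that arrays share, so they are no check of the calls made here.

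Genes named with values are S1pr1, the 15 positive and 12 negative called genes with the largest interaction, and up to 4 called members of each of 33 lists. The result of 1 list is not reported here. For the size ranks, the highest group mean had to exceed the 25th percentile of all genes, 6.53. The other called genes, uncalled list members and role groups were chosen after their values were seen. Members and lists were chosen with earlier results of these data known. Marker levels are log2 of summed linear values. Promoter sequences are from RefSeq (GRCr8).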

Additional observations from a re-analysis of the deposited data

Results flagged for a closer look

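The brain-death difference itself differed with and without SEW-2871, by the interaction term of limma, in 121 genes with a larger or more positive difference under the compound and in 14 genes with a smaller or more negative one. These are the genes described above. Probe sets outside the genes analysed were also fitted, and the share called was near that of the probe sets with 1 symbol. Of 10216 probe sets that are not tied to exactly 1 gene, 51 passed the same test (0.499%), 48 positive and 3 negative, against 0.427% of the probe sets with 1 symbol in that fit of all probe sets. In 44 of the 51 the SEW mean stood apart, a share that was not counted over all such probe sets. These probe sets have no single gene name here.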

How the results depend on the processing

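The number of genes called for the interaction stayed within 1.5 times of 135 under 8 of 14 alternatives that keep or drop arrays together. It was 464 with array weights (371 positive and 93 negative, all 135 included) and 418 without BD replicate 2, SEW replicate 2 and Control replicate 3 together (352 positive, 66 negative, 114 shared). It was 81 with the cardiac and 36 with the adipose marker mean as a covariate, 24 at an adjusted p under 0.01 and 80 with every probe set. Leaving out 1 array gave 38 to 235 genes. The share with the SEW mean apart was 57.4% without those 3 arrays together, 45.7% to 84.2% when 1 array was left out, and 68.0% to 78.5% under the other alternatives, 78.5% being the other rule for the lone group, which takes the group whose removal leaves the smallest range.

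For BD against Control, with 84 genes, the count was 383 with array weights, 499 without the 3 arrays together, 29 and 7 with the cardiac and adipose covariates, 22 at an adjusted p under 0.01, 35 at 1 log2 unit or more and 49 with every probe set. For SEW against Control, with 830, it was 1556 with array weights, 24 and 9 with the covariates, 109 at 0.01 and 172 at 1 log2 unit. For BD/SEW against SEW, with 1392, it was 2506, 629 at 0.01 and 374 at 1 log2 unit. For BD/SEW against BD, with 2, it was 1 without dim genes, 5 with array weights and 1 at 1 log2 unit. Leaving out 1 array gave 26 to 227, 321 to 1006, 790 to 1811 and 1 to 5 genes in that order. No gene named by the rule changed sign under any alternative. List medians did: with 1 array left out, those of heat shock genes ran from −0.67 to 0.07, of B cell markers from −0.06 to 0.50, of airway epithelial markers from −0.05 to 0.73 and of red cell markers from −0.77 to 0.32. Those of 5 other lists, all between −0.06 and 0.10 with all arrays, changed sign as well. With the replicate number as a block, 146 genes were called, 110 of them shared. Same-numbered arrays of different groups deviated together by more than 0.1 in 8 of 18 pairs, with correlations from −0.19 to 0.38, and since the others did not, the numbers were not taken as pairs. That 10 of 12 arrays correlated best with their own number is a hint from the data of a shared component, which the labels do not give. Of the 48 genes named by the rule, 24 were no longer called with the cardiac covariate, 35 with the adipose covariate and 9 with the block. With 3 arrays per group, genes of small difference or near the floor of the arrays could not be resolved.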

Other observations

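Called genes with more than 1 probe set gave a further reading. The 42 such genes had 58 other probe sets, of which 52 had the sign of the chosen one and 6 the opposite sign, and 3 passed over all probe sets, those of Klf2, Lmnb1 and Znrf1. For the positive genes, the median interaction of the other probe sets was 0.56, against 1.33 for the chosen ones, which are brighter by the rule that chose them.

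Several lists not described above had few or no calls. Over all genes 0.95% were called, a share that 1 call in a list this short already exceeds. The glucocorticoid list had 1 of 17, Cebpb, with a median of 0.18. The list of cell death ligands and caspases had 1 of 17, Ripk1, with a median of 0.29, and that of innate sensors 1 of 14, Irak3, with a median of 0.50. The oxidant and metal list had 1 of 15, Slc7a11, with a median of 0.33. MHC class I processing had none of 13 and a median of −0.06. No T and NK cell marker among 17 was called (median 0.10), no B cell marker among 6 (0.28), no airway epithelial marker among 12 (0.30) and no red cell marker among 5 (−0.10).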
